A study of Mus musculus with 238 samples.

Results

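Heat shock chaperone genes were followed across the mouse brain and liver after a change of diet or injections of young plasma. The 10 genes were chosen by name, as a list of inducible and constitutive chaperones, with earlier results of these data known. All 10 were found among the 21076 genes of the count table. They were Hspa1a and Hspa1b (inducible HSP70), Hspa8 (constitutive HSP70), Dnajb1 (an HSP40 that delivers clients to HSP70), Hsph1 (an HSP110 that exchanges the nucleotide of HSP70), Hsp90aa1 and Hsp90ab1 (cytosolic HSP90), Hspb1 (a small heat shock protein), and Hspd1 and Hspe1 (the mitochondrial chaperonin and its lid).

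The study sequenced mRNA of 15 brain regions from 19-month-old C57BL/6JN mice in 2 separate experiments. In the diet experiment, 5 female mice under dietary restriction (aDR) were set against 4 females fed ad libitum (AL), and their livers were sequenced as well. In the plasma experiment, 3 male mice given young mouse plasma (YMP) by retro-orbital injection were set against 4 males given PBS the same way. Liver of the same restricted females is labelled DR in place of aDR. The labels name no other allele or agent. Sex is the same as experiment, so the experiments were not tested against each other.

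Chaperones hold unfolded proteins and help them fold. HSP70 binds and releases clients in a cycle that HSP40 starts and HSP110 speeds up, and HSP90 takes over later folding steps of kinases and hormone receptors. When unfolded proteins build up, the transcription factor HSF1 is set free and binds heat shock elements, runs of inverted GAA units, in front of these genes. Neurons carry much constitutive Hspa8 and little inducible HSP70 at rest.

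The stretches in front of the start sites are shown because the members differ there in the element through which they are known to be induced. Entries were found for 7 of the 10 genes among the RefSeq promoters of GRCm38.p6, and the 250 bases before each start were searched on both strands for GAANNTTC and TTCNNGAA, each of which reads the same on the opposite strand. Capitals mark the matches. Hspa1a (chr17:34972157-34972406, minus strand) and Hspa1b (chr17:34959239-34959488, minus strand) are given whole because they differ at only 3 of 250 bases (98.8% identical). For the others a shorter stretch around the matches is given, for Hspb1 chr5:135887782-135887849 (plus strand), for Hsph1 chr5:149636351-149636380 (minus strand) and for Hspe1 chr1:55088053-55088082 (plus strand).
Hspa1a: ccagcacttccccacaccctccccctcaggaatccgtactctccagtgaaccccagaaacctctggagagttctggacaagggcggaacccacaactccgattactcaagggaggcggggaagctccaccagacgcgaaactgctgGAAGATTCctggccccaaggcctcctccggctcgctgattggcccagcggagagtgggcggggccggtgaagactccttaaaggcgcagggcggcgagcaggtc
Hspa1b: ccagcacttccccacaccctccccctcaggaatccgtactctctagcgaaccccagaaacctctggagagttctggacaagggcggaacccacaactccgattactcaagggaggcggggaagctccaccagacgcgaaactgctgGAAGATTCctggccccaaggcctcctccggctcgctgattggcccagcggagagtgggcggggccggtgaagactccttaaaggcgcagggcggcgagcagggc
Hspb1: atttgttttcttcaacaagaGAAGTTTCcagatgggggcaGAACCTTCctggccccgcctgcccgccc
Hsph1: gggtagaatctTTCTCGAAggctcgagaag
Hspe1: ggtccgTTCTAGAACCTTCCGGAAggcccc

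The single match of Hspa1a and of Hspa1b begins 104 bases before the start, and those of Hspb1 begin 117 and 97 bases before it. Hspe1 holds 4 units in a row, with overlapping matches that begin 89, 84 and 79 bases before its start. Hspd1 lies head to head with Hspe1, and the same letters fall in the window of one of its start sites on the other strand, beginning 144 bases before that start. Hsph1 has 1 match, 33 bases before its nearer start, and Dnajb1 has none in its windows. Of the 7 genes with an entry, 6 held either form, against 14.5% of 27025 genes with an entry. A run of 3 units was held by 2 of the 7, Hspd1 and Hspe1, against 0.514% of all genes. A match is a description of the letters and not a measured binding site.

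The near identity of Hspa1a and Hspa1b continues into their transcripts and limits what the counts can separate. Of all 50-base windows of the Hspa1a transcript, 58.8% also occur in Hspa1b, and 62.3% of those of the Hspa1b transcript occur in Hspa1a. Windows shared with any other gene made up 73.2% for Hspa8, 58.5% for Hsp90aa1, 51.6% for Hspb1, 44.8% for Hspd1 and 36.1% for Hspe1, but 4.49% for Hsp90ab1, 0.407% for Dnajb1 and 0 for Hsph1. Levels of the genes with large shares are therefore uncertain. The libraries did not keep the strand, so reads from the overlapping ends of Hspd1 (chr1:55077835-55088243, minus strand) and Hspe1 (chr1:55088132-55091307, plus strand) cannot be told apart. The same holds for Hspa1a (chr17:34969190-34972156, minus strand) and Gm20481, annotated on the other strand across it. In GRCm38 the others lie at chr17:34956436-34959238 (Hspa1b), chr5:149614287-149636376 (Hsph1), chr8:83608193-83612653 (Dnajb1), chr9:40800984-40810087 (Hspa8, which overlaps 3 small nucleolar RNA genes), chr12:110690605-110702728 (Hsp90aa1), chr17:45567775-45573271 (Hsp90ab1) and chr5:135887919-135889563 (Hspb1).

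The table held 238 libraries, 229 of brain and 9 of liver, with total counts from 605614 to 32410417 (median 8444258) and 6 libraries under 2000000. Levels are given as CPM, the count of a gene per 1000000 counts of its library. Markers of cerebellum, olfactory bulb, caudate putamen, hypothalamus, thalamus and liver were highest in the tissue they define. Markers of the subventricular zone were not, with a median sum of 57.1 CPM there against 282 CPM in olfactory bulb. Markers of cortex and hippocampus summed to 116 CPM in choroid plexus libraries, above the 99.9 CPM of entorhinal cortex. Choroid plexus markers summed to a median of 7168 CPM in choroid plexus libraries, but also to 4735 CPM in corpus callosum and 2933 CPM in subventricular zone (SVZ) libraries. Neuron markers summed to 5154 CPM in choroid plexus libraries, and caudate putamen markers to 2518 CPM in corpus callosum libraries, so these libraries were not set apart by their markers. Groups of a region held 2 to 5 mice. In bulk tissue, fewer cells of a type and less RNA per cell cannot be told apart.

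In control mice Hspa8 and Hsp90ab1 stood far above the inducible HSP70 genes and Hspb1. Per kilobase of exon, so that genes of different length can be compared, the mean over brain regions was 599 CPM for Hspa8 and 519 CPM for Hsp90ab1. Hsp90aa1 had 165 CPM per kilobase, the chaperonin pair Hspd1 and Hspe1 had 87.3 and 57.2, Hsph1 had 45.8 and Dnajb1 had 31.7. Hspb1 (9.15), Hspa1a (4.26) and Hspa1b (0.187) were lowest. As counted, inducible HSP70 mRNA was thus far below constitutive HSP70 mRNA in control brain, with the limit of shared windows given above.

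**Figure D1:**
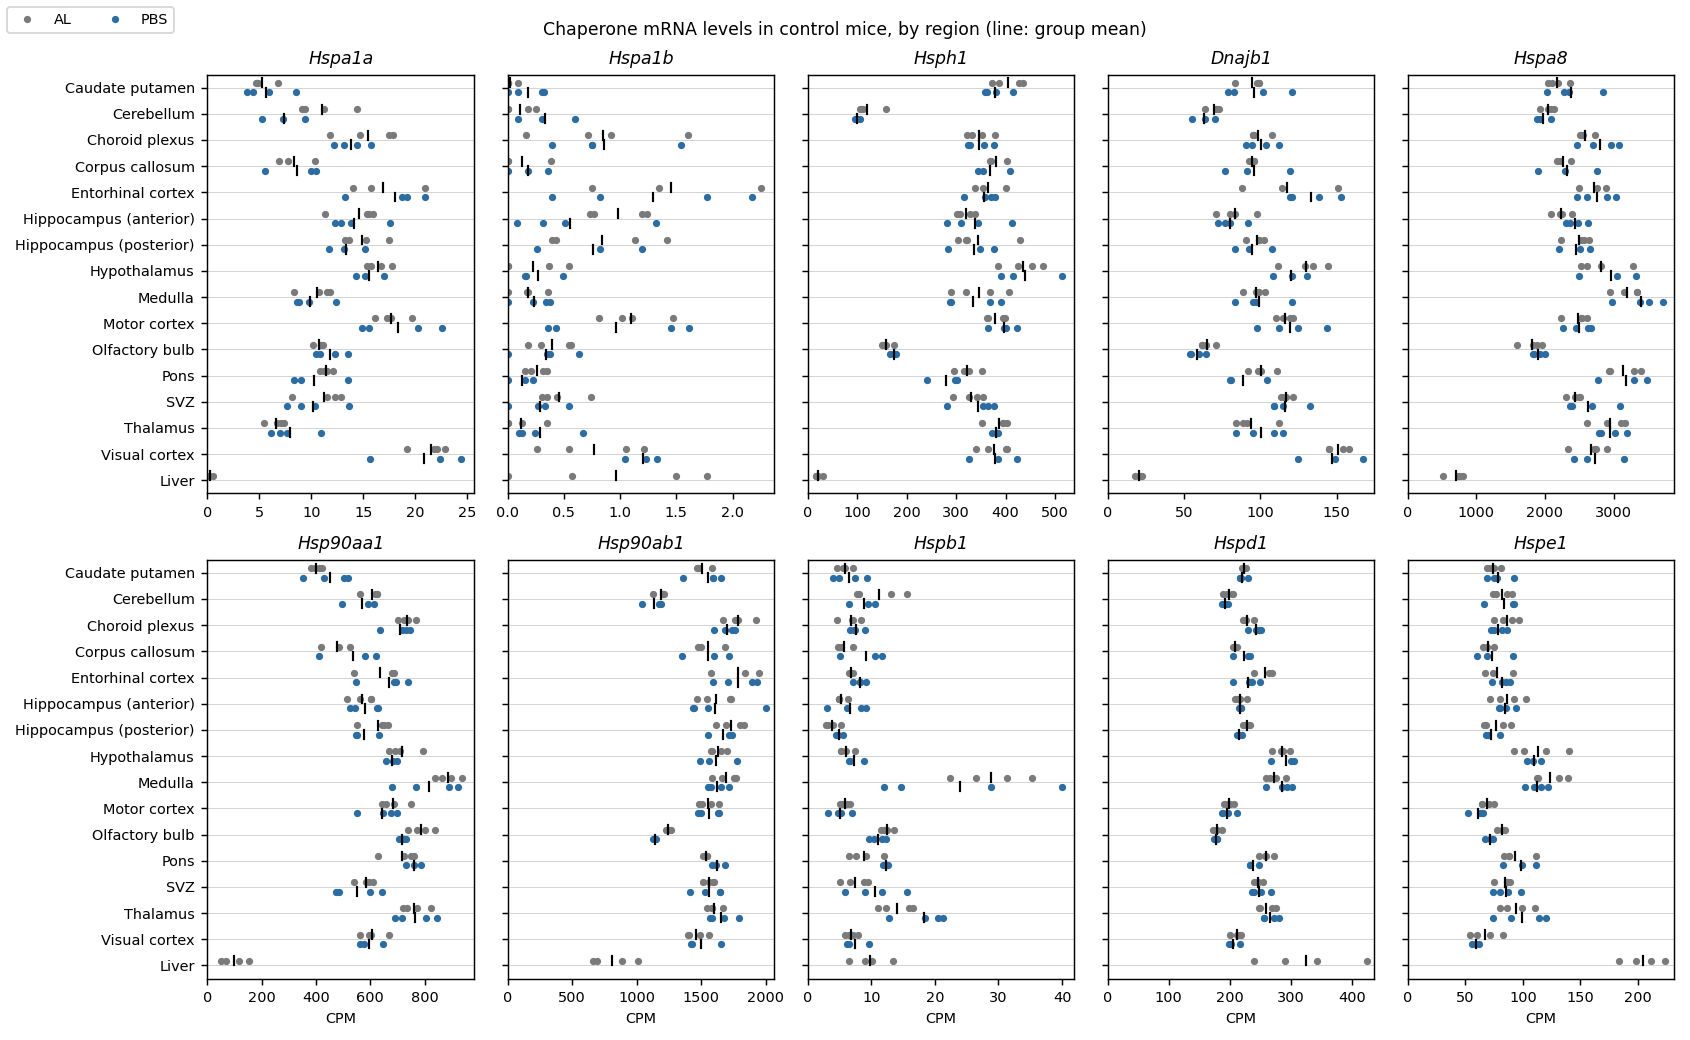
Level of each chaperone gene (horizontal axis, CPM, not scaled for length) in every control library of each region and of liver; points are AL and PBS mice and short lines are group means. Each panel has its own axis from 0. Hsph1 drops in cerebellum and olfactory bulb, and Hspb1 stands out in medulla. In liver Hspe1 lies above every control brain library, while Hspd1 overlaps those of several regions, among them hypothalamus, medulla, thalamus and pons.

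The 10 genes did not share one map of the brain. All 10 differed between the 15 regions (edgeR F test, largest adjusted p 1.53e-13, for Hspa1b), which says little by itself, as 99.5% of the genes tested did. Libraries of different regions came from the same mice, and with the mouse as a replicate block all 10 stayed below the threshold. The AL and PBS groups named the same highest and the same lowest region for 8 of the 10 genes, the exceptions being Hspa1b and Hsp90ab1. Neighbours in the order of levels were picked by the gene's own values, so steps between them tend not to pass. Of 14 such steps, 10 to 14 did not. Over all 105 pairs of regions, 53 to 80 were called, depending on the gene. The share of all genes called between a pair of regions had a median of 60.02% and ran from 6.54% to 75.3%.

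Hspa1a was highest in the 3 cortical regions, followed by hypothalamus, choroid plexus and hippocampus, and lowest in caudate putamen. It measured 21.2 ± 2.90 CPM (SD, n = 7) in visual cortex, 18.0 ± 2.63 (SD, n = 8) in motor cortex and 17.5 ± 3.19 (SD, n = 7) in entorhinal cortex, against 7.27 ± 1.64 (SD, n = 8) in thalamus and 5.45 ± 1.56 (SD, n = 8) in caudate putamen. Only 2 steps of its order passed, from posterior hippocampus to olfactory bulb (adjusted p 8.46e-04, edgeR) and from thalamus to caudate putamen (adjusted p 0.0216). Its near copy Hspa1b led in entorhinal cortex, at 1.36 ± 0.734 CPM (SD, n = 7), and in each of the 9 regions below anterior hippocampus at least 1 control library had no read of it. Dnajb1, the HSP40 partner, was also highest in visual cortex (149 ± 13.2 CPM, SD, n = 7) and was lowest in olfactory bulb (61.5 ± 5.43, SD, n = 8). The step from visual to entorhinal cortex passed for Dnajb1 (adjusted p 0.0112).

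Hsph1 had a sharp drop toward the end of its order. It ranged from 437 ± 47.0 CPM (SD, n = 7) in hypothalamus to 304 ± 34.0 (SD, n = 7) in pons over 13 regions, without a step that passed the test. It then fell to 167 ± 11 CPM (SD, n = 8) in olfactory bulb (adjusted p 3.18e-20, edgeR) and to 112 ± 21.1 (SD, n = 7) in cerebellum (adjusted p 3.19e-10). The control libraries of these last regions, 95.5 to 179 CPM, lay below every control library of the other 13, the lowest of which was 242 CPM in pons.

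Hspa8 and both HSP90 genes varied less. Hspa8 was highest in medulla, at 3297 ± 265 CPM (SD, n = 8), and pons, at 3160 ± 273 (SD, n = 7), and lowest in olfactory bulb, at 1857 ± 127 (SD, n = 8). Hsp90aa1, the more inducible HSP90, ran from 850 ± 87.1 CPM (SD, n = 8) in medulla to 426 ± 57.6 (SD, n = 8) in caudate putamen. Hsp90ab1, the constitutive one, ran from 1782 ± 156 CPM (SD, n = 7) in entorhinal cortex to 1164 ± 60.1 (SD, n = 7) in cerebellum, with 1 passing step, from visual cortex to olfactory bulb (adjusted p 9.41e-13, edgeR). Highest over lowest region was 1.78 for Hspa8, 2.0 for Hsp90aa1 and 1.53 for Hsp90ab1, against 3.90 for Hsph1 and 3.89 for Hspa1a.

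Hspb1, a small heat shock protein that binds unfolding proteins and actin and is known in motor neurons and glia, had the largest ratio between regions after Hspa1b (13.3), whose lowest levels rest on few reads. It was 26.4 ± 9.67 CPM (SD, n = 8) in medulla, 16.1 ± 3.83 (SD, n = 8) in thalamus and 11.7 ± 1.24 (SD, n = 8) in olfactory bulb, and both steps passed (adjusted p 9.83e-05 and 0.00453, edgeR). It was lowest in posterior hippocampus, at 4.33 ± 1.04 CPM (SD, n = 7), a ratio of 6.10 between extremes. The mitochondrial pair led in the same regions. Hspd1 had 287 ± 15.1 CPM (SD, n = 7) in hypothalamus and 279 ± 16.8 (SD, n = 8) in medulla, and Hspe1 had 118 ± 12.1 (SD, n = 8) in medulla and 112 ± 15.5 (SD, n = 7) in hypothalamus. At the bottom they parted, with Hspd1 lowest in olfactory bulb (178 ± 4.57 CPM, SD, n = 8) and Hspe1 in visual cortex (63.8 ± 10.2 CPM, SD, n = 7).

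After TMM scaling, the mitochondrial chaperonin pair, Hspa1b and Hspb1 were higher in liver than in the mean of the brain regions. Hspa1a, Hsph1, Hsp90aa1, Dnajb1 and Hspa8 were lower. In livers of AL mice, Hspe1 measured 183, 211, 223 and 198 CPM and Hspd1 measured 424, 240, 291 and 343 CPM. Hsph1 was at 16.6, 22.0, 30.1 and 17.7 CPM, below every brain library of these mice. Hspa1a was at 0, 0.136, 0.166 and 0.495 CPM, or 0 to 6 reads. Hspa1b rested on 0, 13, 9 and 7 reads, and its liver mean of 0.962 CPM lay below its AL mean in entorhinal cortex (1.45 CPM). In plain CPM, Hspb1 had a mean of 9.73 in these livers against 9.44 over control brain regions, and 28.8 in medulla of AL mice. Against the mean of the brain regions of the same mice, the log2 difference was -4.71 for Hspa1a (adjusted p 2.37e-22, edgeR), -2.97 for Hsph1 (8.06e-30), -1.79 for Hsp90aa1 (3.45e-20), -1.33 for Dnajb1 (3.81e-21) and -0.88 for Hspa8 (3.14e-14). It was 2.22 for Hspe1 (2.55e-34), 2.14 for Hspa1b (5.54e-05), 1.45 for Hspd1 (6.09e-30) and 1.24 for Hspb1 (1.51e-11), and Hsp90ab1 did not pass (-0.0048, adjusted p 0.96). This test was fitted on libraries and did not pair them by mouse. The background is again high, as 86.2% of genes differed between liver and brain. Scaling decides the middle of this list: the median of all genes was -0.28 with TMM factors and -1.22 with plain library totals, where Hsp90ab1 passed at -0.94 and Hspb1 did not at 0.31 (adjusted p 0.060).

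Under dietary restriction no chaperone gene passed the test, and Hsph1 had the largest change of the 10. One level per mouse was taken over its brain regions on the log2 CPM scale and tested with limma. None of the 10 genes passed, while 0.922% of the 15616 genes tested did, and 1 of the 10, Hsph1, had an unadjusted p under 0.05, which 16.1% of all genes had. The 10 genes had 3 higher and 7 lower values with a median log2 change of -0.037, against -0.0062 for all genes. Hsph1 was lower in 15 of 15 regions, Hspa8 was lower in 13 of 15 and Dnajb1 was higher in 14 of 15. The regions come from the same mice and are not separate results, and the share of all genes with such counts is not given. Per mouse, the log2 change was -0.071 for Hspa8 (SE 0.044, adjusted p 0.47, limma) and 0.038 for Dnajb1 (SE 0.043, adjusted p 0.72).

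Hsph1 was the member whose mice separated. Relative to the mean of the mice, the 4 AL mice were at 0.10, 0.12, 0.20 and -0.0092 on the log2 scale, and the 5 aDR mice were at -0.15, -0.15, -0.11, -0.067 and -0.053. No restricted mouse reached the lowest freely fed mouse, a separation downward that 4.14% of all genes showed and upward 4.16%. The log2 change was -0.21 (SE 0.044, adjusted p 0.070, limma). In a model of all libraries with the mouse as a replicate block (limma voom), the change was -0.21 with an adjusted p of 8.40e-07, and Hspa8 came under the threshold as well, at -0.071 (adjusted p 0.0497). That model uses one correlation between regions of a mouse for all genes, 0.033, while the fitted value was 0.11 for Hsph1 and 0.25 for Hspa8. With a filter of a mean of 5 CPM the adjusted p of Hsph1 was 0.0419, with a mean-variance trend in limma it was 0.0339, and with each mouse left out in turn its change ran from -0.25 to -0.18 without passing.

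**Figure D2:**
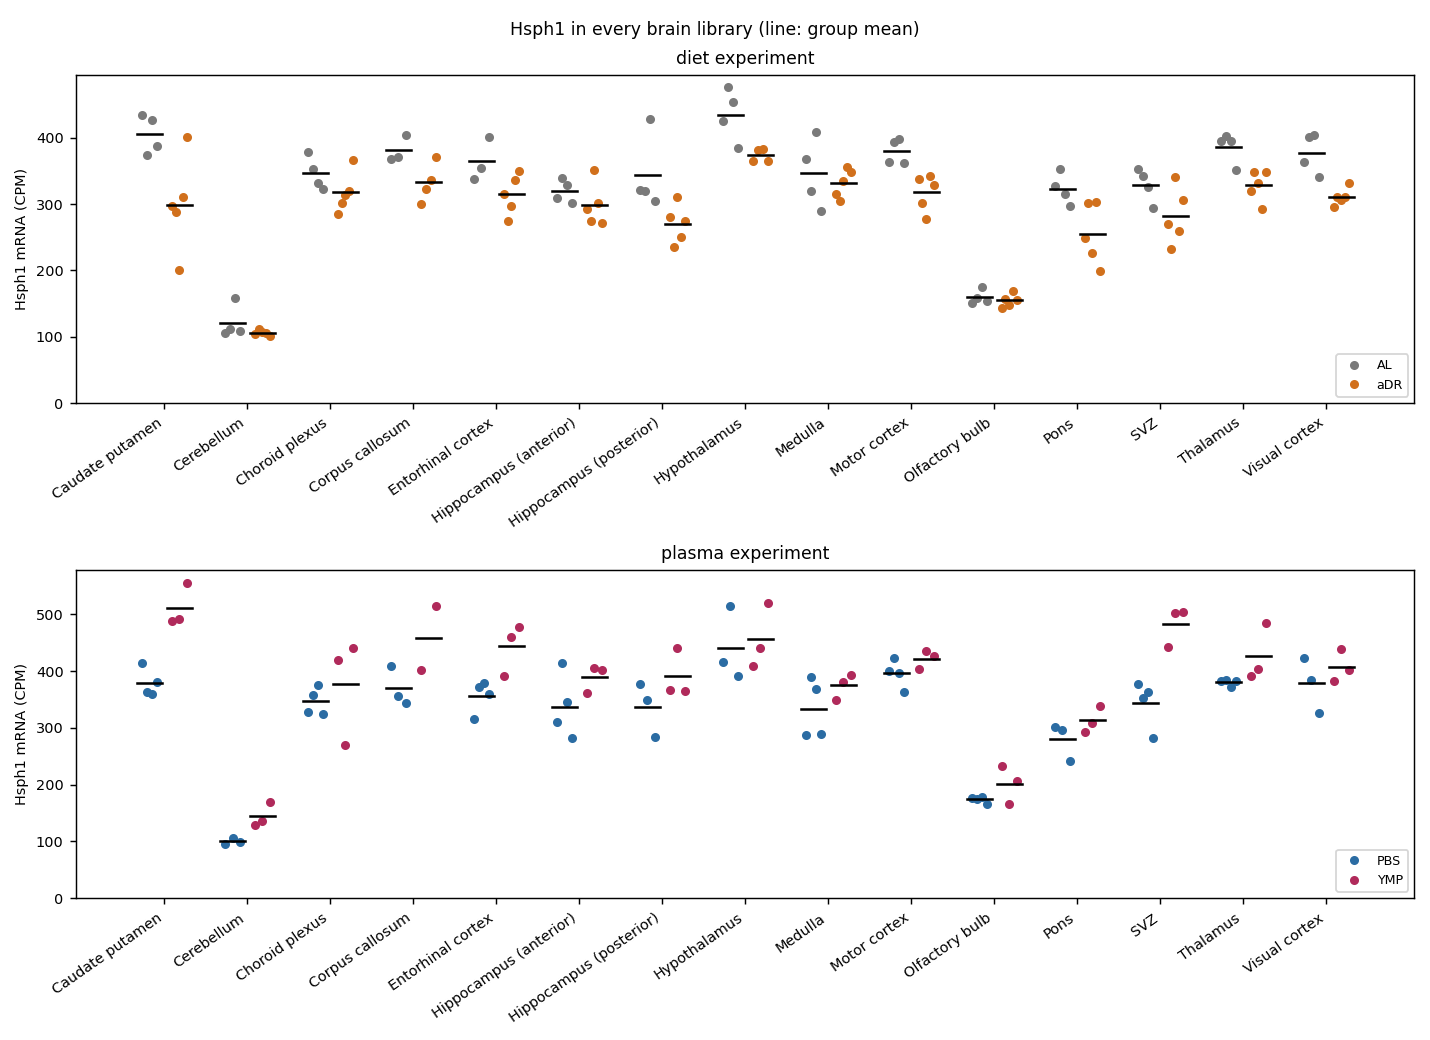
Hsph1 level (vertical axis, CPM) in every brain library, by region, with AL and aDR mice above and PBS and YMP mice below; lines are group means. The aDR mean lies below the AL mean in 15 of 15 regions and the YMP mean above the PBS mean in 15 of 15 regions.

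Within single regions, tested with edgeR, no member passed in any of 136 member and region tests, against 0.0525% of all gene and region tests; DESeq2 called 2. At an unadjusted p under 0.05, 11 were lower (8.09%) and 0 higher, where 3.23% of all tests were lower and 3.01% higher. Of those 11, 7 were Hsph1, 2 were Hspa8, and 1 each was Hsp90aa1 and Hspb1. The regions of a mouse share their animal, so these tests are not independent of each other.

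The smallest p of Hsph1 was in visual cortex, where AL mice had 364, 401, 404 and 340 CPM and aDR mice had 296, 310, 306, 310 and 331 CPM. The groups did not overlap and the log2 change was -0.27 (SE 0.060, adjusted p 0.0718, edgeR). DESeq2 gave an adjusted p of 0.0151 there and called motor cortex as well (-0.26, adjusted p 0.0281). Across regions the change ran from -0.40 in caudate putamen to -0.046 in medulla. In caudate putamen the restricted mice spanned 201 to 400 CPM, around a mean of 299 against 406 in AL mice, and overlapped them. The lowest, mouse 64, also had the lowest Hspd1 level (140 CPM) and the highest Hspe1 level of that region.

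Hspa8, Hspa1a, Hspa1b and Dnajb1 overlapped between the diet groups. Hspa8 was 2747, 2900, 2713 and 2341 CPM in visual cortex of AL mice and 2498, 2552, 2278, 2410 and 2368 CPM in aDR mice, overlapping groups with a log2 change of -0.14 (SE 0.058, adjusted p 0.45, edgeR). It was lower in 13 of 15 regions. Hspa1a had its smallest p in medulla, with 8.32, 10.7, 11.5 and 11.8 CPM in AL and 9.23, 10.965, 7.86, 10.1 and 7.28 CPM in aDR mice (-0.27, SE 0.14, adjusted p 0.78). Hspa1b had enough reads for a test in entorhinal cortex alone, with 1.35, 0.751 and 2.26 CPM in AL and 1.68, 0.674, 2.05, 1.12 and 1.73 CPM in aDR mice (-0.056, SE 0.46, adjusted p 0.9997). Dnajb1 had its smallest p in the one region where it was lower, olfactory bulb, with 64.2, 61.9, 61.9 and 70.7 CPM in AL and 58.3, 67.2, 60.2, 59.99 and 56.4 CPM in aDR mice (-0.098, SE 0.066, adjusted p 0.54).

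The HSP90 genes, Hspb1 and the mitochondrial pair did not pass in any region either. In olfactory bulb, Hsp90aa1 was 740, 800, 839 and 771 CPM in AL and 703, 746, 684, 699 and 788 CPM in aDR mice (-0.13, SE 0.058, adjusted p 0.36, edgeR). In the same region Hspb1 was 11.99, 13.6, 12.5 and 11.6 CPM in AL and 7.11, 10.1, 9.15, 5.45 and 12.9 CPM in aDR mice (-0.39, SE 0.17, adjusted p 0.34), although it was higher in 10 of 15 regions. The 1 restricted mouse at 12.9 CPM lay within the AL range and the other 4 lay below it. Hsp90ab1 in medulla was 1580, 1752, 1660 and 1772 CPM in AL and 1490, 1591, 1552, 1552 and 1653 CPM in aDR mice (-0.095, SE 0.056, adjusted p 0.81). Hspd1 in motor cortex was 200, 196, 207 and 190 CPM in AL and 172, 177, 192, 198 and 191 CPM in aDR mice (-0.086, SE 0.053, adjusted p 0.61). Hspe1, the lid of the chaperonin, was 69.1, 71.7, 74.7 and 81.2 CPM in caudate putamen of AL mice and 75.7, 99.4, 131, 75.4 and 79.8 CPM in aDR mice (0.38, SE 0.20, adjusted p 0.62), where mouse 64 at 131 CPM stood above the rest. Without that mouse the change was 0.17.

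Among the chaperone lists, 2 genes were called under restriction, where 0.922% of all genes were. Of 25 other cytosolic HSP70, HSP110 and HSP40 genes 16 were lower (median -0.010), and 1 was called, Hspa12b, a distant HSP70 relative of endothelium (-0.23, SE 0.041, adjusted p 0.0435, limma). Of 6 vascular markers 3 were higher and 3 lower (median -0.13), and Flt1 (-0.26, adjusted p 0.0382, limma) and Cldn5 (-0.48, adjusted p 0.0402) were called lower. The part of vascular markers in the Hspa12b value was not tested. Of 10 HSP90 co-chaperones 8 were lower (median -0.079), and 1 was called, Chordc1 (-0.32, SE 0.051, adjusted p 0.0311). None was called in the other chaperone lists. Of 5 small heat shock proteins 3 were higher (median 0.036), with Hspb6 at 0.24 (SE 0.079, adjusted p 0.19). Of 8 mitochondrial chaperones 6 were higher (median 0.031), with the protease Lonp1 at 0.076 (SE 0.029, adjusted p 0.24). Of 8 subunits of the cytosolic chaperonin 6 were lower (median -0.0096), with Cct4 at -0.031 (SE 0.027, adjusted p 0.62). Of 14 chaperones of the endoplasmic reticulum 11 were lower (median -0.059), with Calr, a lectin chaperone, at -0.18 (SE 0.041, adjusted p 0.081). Of 4 heat shock factors and regulators 3 were lower (median -0.0074), and none was called. Hsf1, which drives the heat shock genes, was at -0.14 (SE 0.035, adjusted p 0.10).

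Cold-inducible RNA-binding proteins, known to rise when temperature drops, had the opposite direction to Hsph1. Both genes of that list were called higher in aDR mice, Rbm3 at 0.69 (SE 0.069, adjusted p 0.00589, limma) and Cirbp at 0.64 (SE 0.065, adjusted p 0.00619). Their mean mouse level was 0.18 to 0.43 in the 5 aDR mice and -0.48 to -0.22 in the 4 AL mice. Among these, the AL mouse with the highest Hsph1 level, mouse 68, had the lowest level of the cold-inducible genes. Over the 229 brain libraries, after group means were taken out, Hsph1 correlated with Cirbp at Pearson's r = -0.58 and with Rbm3 at -0.42. The spread of r over genes was wide for Hsph1 and differed between members. Its 99th percentile over 12036 genes was 0.51 for Hsph1 and 0.26 for Hspa1a, and the lower end is not given. Negative values were not particular to Hsph1. Rbm3 was at -0.37 with Hspa8, -0.36 with Hspd1, -0.21 with Hspb1 and -0.18 with Hspa1a. Cirbp was at -0.28 with Hspd1, -0.21 with Hspa1a, -0.0084 with Hspb1 and -0.0025 with Hspa8. These values describe libraries that share mice and depth, and the part of temperature in them was not tested.

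In liver no member passed between aDR and AL mice (edgeR, 0 at an unadjusted p under 0.05, 0 with DESeq2), where 0.22% of 11815 genes did. Hsph1 was 16.3, 24.8, 19.997, 20.8 and 25.5 CPM in aDR livers and overlapped the AL values given above, of which mouse 68 at 30.1 CPM was the highest of all 9 (log2 change 0.073, SE 0.21, adjusted p 0.97). Hsp90aa1 was 51.5, 117, 155 and 70.1 CPM in AL livers and 49.5, 102, 92.0, 62.0 and 50.8 CPM in aDR livers (-0.40, SE 0.31, adjusted p 0.81), and the change was -0.098 without AL mouse 68 and -0.61 without AL mouse 63. Hspa1b had the largest positive value, on 0 to 19 reads a library (0.32, SE 0.72, adjusted p 0.97). Dnajb1 followed, with 20.2, 17.7, 21.6 and 22.3 CPM against 25.3, 18.2, 22.3, 25.7 and 28.0 CPM (0.29, SE 0.18, adjusted p 0.71), and 0.17 without restricted mouse 67. Hspa1a had too few reads in liver for a test. The change in liver did not differ from that in brain for any of the 9 genes tested (limma, 0 at an unadjusted p under 0.05), and for Hsph1 the difference was 0.28 (SE 0.20, adjusted p 0.82), and 0.18 without AL mouse 63. Of 11350 genes, 0.0881% did differ.

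No gene of the other lists passed under restriction. Of 14 immediate early genes 7 were higher (median 0.011), with Nr4a1 at 0.21 (SE 0.074, adjusted p 0.22, limma). All 5 blood markers were higher (median 0.93), with Alas2, a heme synthesis enzyme, at 0.36 (SE 0.095, adjusted p 0.12). All 5 microglia markers were lower (median -0.048), with the chemokine receptor Cx3cr1 at -0.13 (SE 0.031, adjusted p 0.093). Choroid plexus markers (median 0.16), oligodendrocyte markers (0.062), astrocyte markers (-0.0075) and neuron markers (0.026) had no call. The part of blood and microglia markers in the Hsph1 value was not tested.

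**Figure D3:**
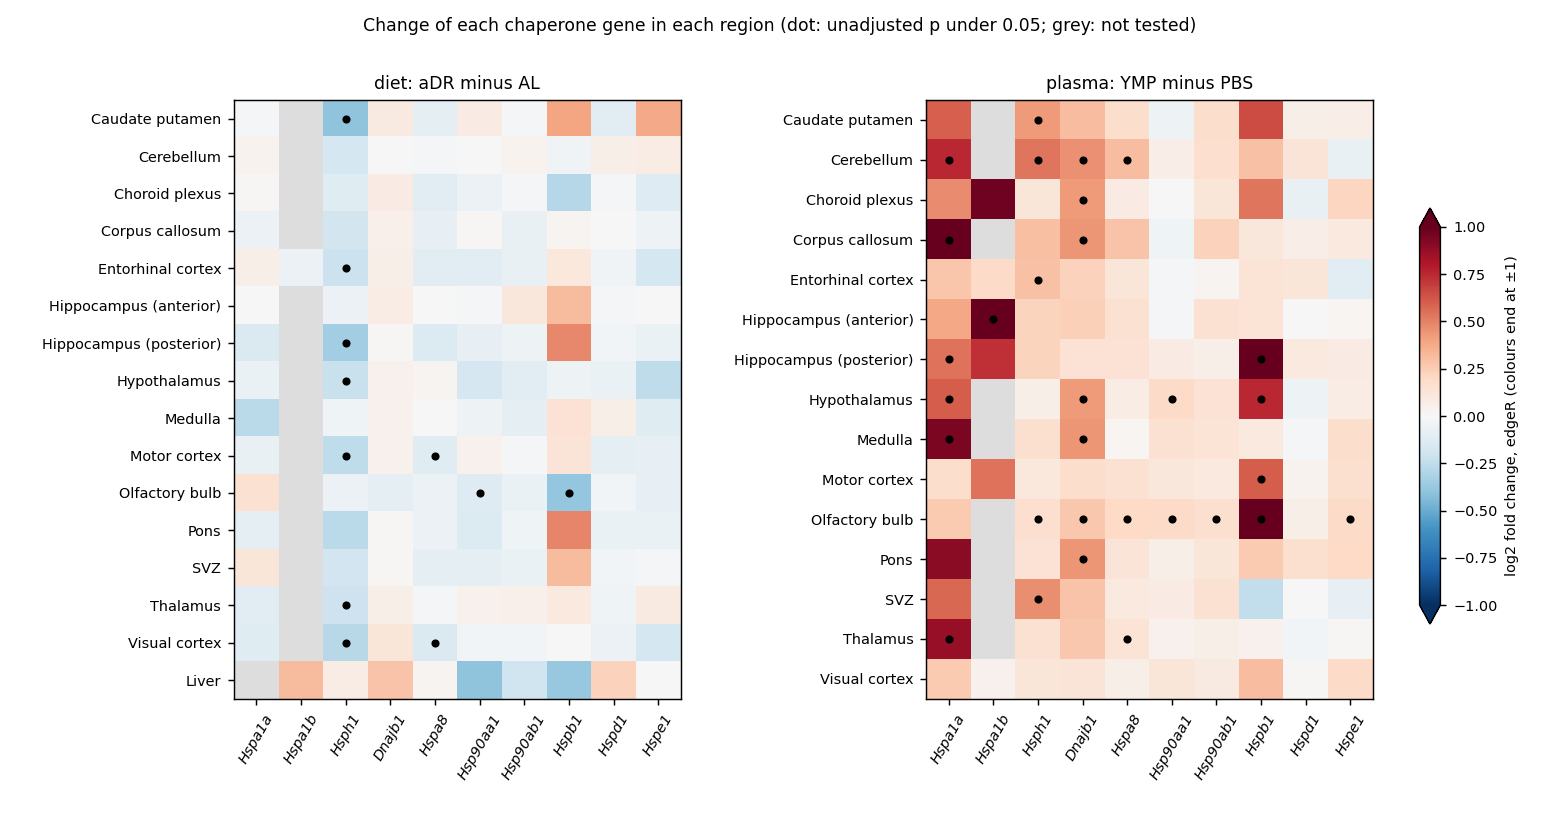
Log2 change of each gene (columns) in each region (rows), aDR minus AL on the left and YMP minus PBS on the right, on one colour scale that ends at 1 in each direction; dots mark an unadjusted p under 0.05 and grey cells were not tested. The diet panel is blue along Hsph1 with 7 dots there, and the plasma panel is mostly red with 30 dots, none of which passed after adjustment.

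After young plasma, all 10 genes had higher mean levels over the brain than after PBS, and none passed the test. The median log2 change of the 10 was 0.19, against -0.0037 for all 15768 genes tested, of which 48.2% were higher. The test called 0 of all genes (0%, limma), so at 3 against 4 mice no gene in the table passed, and 3 members, all higher, had an unadjusted p under 0.05, which 8.09% of all genes had (391 higher and 884 lower). Within regions, 127 of 141 values were higher. No member passed in a region with edgeR, against 0.0127% of all gene and region tests, and DESeq2 called 3, all Hsph1. At an unadjusted p under 0.05, 30 of the 141 were higher (21.3%) and 0 lower, where 2.65% of all tests were higher and 3.46% lower. These 30 come from 7 mice whose regions moved together, as given next, so they are not 30 separate results.

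Regions of one mouse tended to lie on the same side of the mean. The fitted correlation between regions of one mouse was 0.63 for Dnajb1, 0.54 for Hspa1a, 0.47 for Hspa8, 0.35 for both HSP90 genes and 0.14 to 0.31 for the others, against 0.076 over all genes. In the diet experiment it was 0.0019 to 0.25. Among YMP mice, mouse 81 was highest for 9 of the 10 genes, Hspa8 being the exception, and among PBS mice, mouse 84 was lowest for 8, Hspa1a and Hspa1b being the exceptions.

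Inducible HSP70 had the largest changes. Relative to the mean of the mice, Hspa1a was at -0.24, 0.024, -0.42 and -0.37 in PBS mice and at -0.13, 0.16 and 0.72 in YMP mice on the log2 scale. The groups overlapped, through YMP mouse 73 and PBS mouse 76. The log2 change was 0.50 (SE 0.20, adjusted p 0.58, limma), higher in 15 of 15 regions, and was 0.26 without YMP mouse 81 and 0.70 without YMP mouse 73. Hspa1b, which shares reads with it, was at -0.48, 0.077, -0.050 and -0.48 in PBS and at -0.20, 0.25 and 0.65 in YMP mice (0.47, SE 0.23, adjusted p 0.64), and 0.24 without YMP mouse 81.

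The HSP70 partners followed with smaller values. Hsph1 was at -0.17, -0.0043, -0.063 and -0.24 in PBS mice and at 0.059, 0.095 and 0.20 in YMP mice, without overlap. The log2 change was 0.24 (SE 0.070, adjusted p 0.48, limma), higher in 15 of 15 regions, and 0.19 to 0.28 with any one mouse left out. Hsp90ab1 did not overlap either, with -0.11, 0.037, -0.033 and -0.16 in PBS mice and 0.038, 0.060 and 0.097 in YMP mice (0.13, SE 0.056, adjusted p 0.62), although the nearest mice were almost level. Such upward separation was seen for 4.72% of all genes and the downward one for 5.34%. Dnajb1 was at -0.091, 0.043, -0.19 and -0.34 in PBS and at -0.056, 0.16 and 0.33 in YMP mice (0.29, SE 0.12, adjusted p 0.58). Hspa8 was at -0.11, 0.079, -0.052 and -0.21 in PBS and at 0.077, 0.10 and 0.040 in YMP mice (0.15, SE 0.070, adjusted p 0.64), and 0.097 without PBS mouse 84. Both were higher in 15 of 15 regions with overlapping mice.

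Hspb1 had a change of 0.34 (SE 0.17, adjusted p 0.65, limma) and was 0.15 without YMP mouse 81. Hsp90aa1 (0.071, SE 0.067), Hspe1 (0.075, SE 0.074) and Hspd1 (0.039, SE 0.043) were nearest to no change, and without YMP mouse 81 Hspe1 was at 0.0026 and Hspd1 at 0.013. With the mouse as a replicate block over all libraries (limma voom), 5 members came under the threshold: Hspa1a (0.52, adjusted p 9.89e-05), Dnajb1 (0.30, 2.20e-05), Hsph1 (0.24, 9.97e-04), Hsp90ab1 (0.13, 0.00361) and Hspa8 (0.15, 0.00475). That model assumes a correlation of 0.076 between regions of a mouse, below the 0.25 to 0.63 fitted for these 5, and called 503 genes in all.

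**Figure D4:**
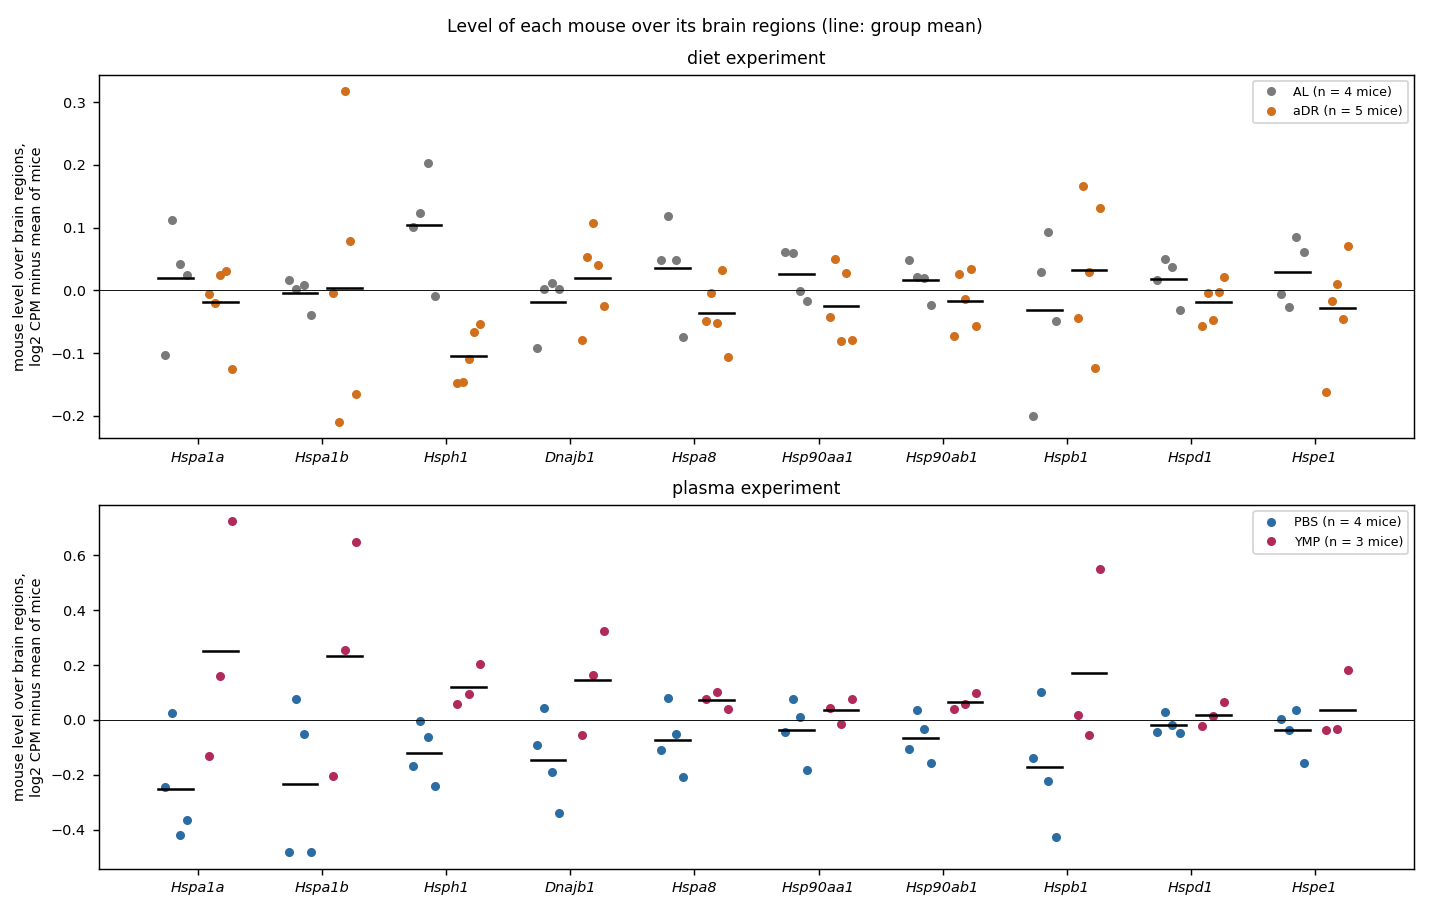
Level of each mouse over its brain regions (vertical axis, log2 CPM minus the mean of the mice in that experiment) for the 10 genes, diet experiment above and plasma experiment below; points are mice and lines are group means. Hsph1 separates in both panels, and one YMP mouse, at 0.72 for Hspa1a, lies far above the others for several genes; the vertical axes of the panels differ.

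In single regions the highest values were often those of YMP mouse 81. Hspa1a in medulla was 8.86, 12.35, 8.575 and 9.82 CPM in PBS mice and 11.96, 15.1 and 27.8 CPM in YMP mice (log2 change 0.94, SE 0.26, adjusted p 0.45, edgeR), and 0.48 without mouse 81, which had the 27.8 CPM. In corpus callosum, where only 2 YMP mice were sequenced, it was 10.4, 5.55 and 9.998 CPM in PBS and 14.4 and 30.2 CPM in YMP mice (1.37, SE 0.37, adjusted p 0.27). Hspb1 in olfactory bulb was 10.5, 12.4, 11.8 and 9.57 CPM in PBS and 13.2, 13.9 and 29.3 CPM in YMP mice, without overlap (1.02, SE 0.20, adjusted p 0.27). The 13.2 CPM, of YMP mouse 73, rested on 8 reads, and the region was picked by its p. The change of Hspb1 was 0.30 without mouse 81. Hspa1b in anterior hippocampus was 0.0880, 1.32, 0.511 and 0.312 CPM in PBS and 1.80, 1.63 and 1.03 CPM in YMP mice, from 1 to 15 reads a library (1.76, SE 0.68, adjusted p 0.68).

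Cerebellum held the smallest p of 4 members, and there all 3 YMP mice lay above the 3 PBS mice. The region was picked by the p of these genes, so a separation there is no separate result. The 4 members were measured in the same mice, and the share of all genes so separated in cerebellum is not given. Hsph1 was 95.5, 107 and 99.1 CPM in PBS and 129, 136 and 169 CPM in YMP mice (0.53, SE 0.11, adjusted p 0.36, edgeR). DESeq2 called Hsph1 in cerebellum (adjusted p 0.0174), caudate putamen (0.0048) and SVZ (0.0208). Dnajb1 was 70.1, 64.0 and 55.4 CPM in PBS and 74.3, 84.8 and 100.3 CPM in YMP mice (0.45, SE 0.13, adjusted p 0.43). Hspa8 was 1925, 2090 and 1885 CPM in PBS and 2297, 2332 and 2678 CPM in YMP mice (0.31, SE 0.085, adjusted p 0.43), and Hspd1 was 192, 197 and 188 CPM in PBS and 201, 205 and 221 CPM in YMP mice (0.13, SE 0.069, adjusted p 0.53), the latter at 0.080 without mouse 81.

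Olfactory bulb held the smallest p of Hsp90aa1, Hsp90ab1 and Hspe1 as well as that of Hspb1. Hsp90aa1 was 719, 719, 730 and 706 CPM in PBS and 756, 770 and 899.6 CPM in YMP mice (0.19, SE 0.061, adjusted p 0.46, edgeR), and 0.097 without mouse 81. Hsp90ab1 was 1150, 1128, 1139 and 1136 CPM in PBS and 1126, 1277 and 1366 CPM in YMP mice (0.16, SE 0.061, adjusted p 0.49), and 0.10 without mouse 81. Hspe1 was 71.3, 67.0, 73.0 and 73.9 CPM in PBS and 67.7, 71.5 and 90.5 CPM in YMP mice (0.19, SE 0.087, adjusted p 0.56), and -0.00045 without mouse 81. In these 3 genes the highest library was again that of mouse 81. The olfactory bulb library of YMP mouse 73 was the smallest of the series, with 605614 counts.

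Whether the effect differed between regions was tested with one F test per gene and experiment, fitted on libraries without the mouse. No member passed in either experiment (edgeR, adjusted p 1 for each, 0 at an unadjusted p under 0.05), where 0.0128% of genes did for diet and 0.824% for plasma. A larger change in one region than in another was therefore not detected for these genes, with few mice in each group.

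No gene of the lists around the chaperones was called after plasma, and the lists did not share one direction. All 10 HSP90 co-chaperones were higher, with a median log2 change of 0.079 and Ahsa1, an activator of HSP90, at 0.12 (SE 0.054, adjusted p 0.64, limma). All 8 subunits of the cytosolic chaperonin were higher, with a median of 0.058, and Cct5 was at 0.11 (SE 0.049, adjusted p 0.63). Of 25 other HSP70, HSP110 and HSP40 genes 18 were higher, with a median of 0.024, and Dnaja1, an HSP40, was at 0.078 (SE 0.045, adjusted p 0.69). Of 8 mitochondrial chaperones 6 were higher (median 0.022), with Grpel2 at 0.099 (SE 0.048, adjusted p 0.64). Of 14 chaperones of the endoplasmic reticulum 9 were higher (median 0.037), with Hspa5 at 0.19 (SE 0.11, adjusted p 0.71). Of 5 small heat shock proteins 4 were lower (median -0.15), and Hspb6 was at -0.38 (SE 0.097, adjusted p 0.43), opposite in sign to Hspb1. Of 4 heat shock factors and regulators 2 were higher (median 0.0047), with Hsf4 at -0.19 (SE 0.059, adjusted p 0.49) and Hsf1 at 0.10 (SE 0.056, adjusted p 0.67). Rbm3 and Cirbp, called under restriction, had a median of -0.096 here, and Cirbp was at -0.10 (SE 0.082, adjusted p 0.78).

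In other gene groups most members lay on one side after plasma, and none was called. Of 14 immediate early genes, which respond to neuronal activity, 13 were higher with a median of 0.19, and Jun was at 0.11 (SE 0.043, adjusted p 0.56, limma). All 8 choroid plexus markers were lower with a median of -1.24, and the smallest p was that of Aqp1 (-1.30, SE 0.18, adjusted p 0.34). Their summed level ran from 1.72 to 19894 CPM over PBS libraries and from 0.799 to 15339 CPM over YMP libraries, and none of the 8 was at 0 throughout a group. All 6 oligodendrocyte markers were lower (median -0.14, none called), summing to between 1050 and 36568 CPM in PBS and between 1158 and 32432 CPM in YMP libraries. Without choroid plexus and corpus callosum libraries the change of Hspa1a was 0.47 and that of Hsph1 0.24. Other libraries with these markers stayed in, such as SVZ (median of 2933 CPM of choroid plexus markers) and medulla (25921 CPM of oligodendrocyte markers). The values therefore do not separate the chaperones from the markers. All 5 blood markers (median -0.32) and all 5 astrocyte markers (median -0.072) were lower as well, with Gfap, an astrocyte filament, at -0.36 (SE 0.092, adjusted p 0.42). Microglia (-0.050), vascular (-0.045) and neuron markers (0.039) had medians nearer to 0. The part of these lists in the chaperone values was not tested.

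Co-variation of the members over libraries is given as a description. After group means were taken out, Hspa1a and Dnajb1 correlated over libraries at r = 0.66 in the 98 plasma libraries and 0.24 in the 131 diet libraries. Hsp90aa1 and Hsp90ab1 correlated at 0.66 and 0.64. Hspa1a and Hsph1 were at 0.50 and 0.15. Hsph1 and Hspb1 were at 0.072 in the plasma and -0.51 in the diet libraries, the lowest value of any pair there, and Hspd1 with Hspe1, which lie head to head, stood at 0.33 and -0.088. Libraries share mice, and depth and base composition also enter such values.

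**Figure D5:**
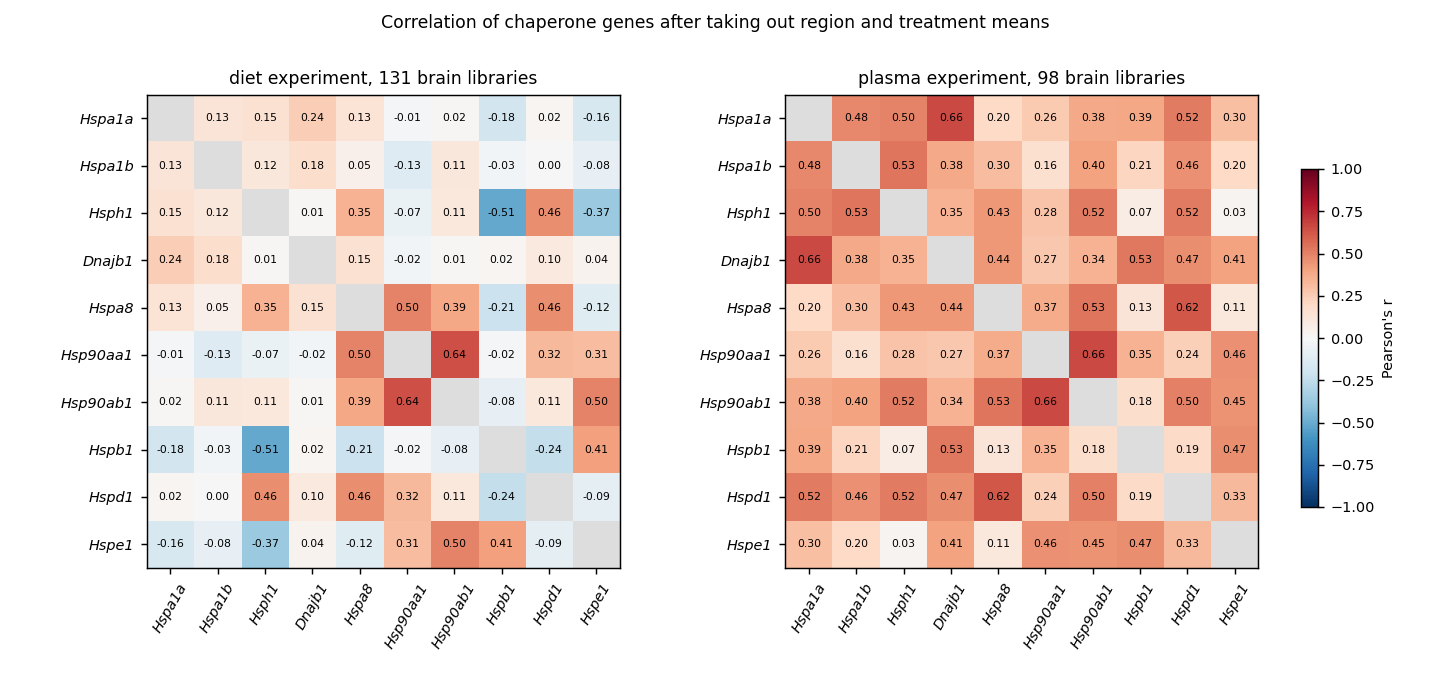
Pearson's r of each pair of members over brain libraries after region and treatment means were taken out, diet experiment (131 libraries) on the left and plasma experiment (98 libraries) on the right. Positive values (red) fill the plasma panel, while in the diet panel Hspb1 and Hspe1 are negative (blue) with Hsph1.

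Genes with the most similar pattern were sought for 5 members, by Pearson's r over the same 229 libraries among 12036 genes with a mean of at least 5 CPM. For Hspa1a the first was another member, Dnajb1 (r = 0.52), followed by Banp (0.44), Zmym1 (0.41), Lats2 (0.39) and Pxn (0.38). For Hsph1 they were Wdr47 (0.69), Nckap1 (0.68), Fbxw11 (0.68), Agtpbp1 (0.67) and Bap1 (0.64), none a chaperone. For Hspa8 they were Idh3a (0.76), Tmx2 (0.75), Pgk1 (0.72), Letm1 (0.72) and Pitpna (0.70).
For Hspd1 the list held chaperones: Dnaja1 (0.71), an HSP40, and Cct8 (0.64) and Cct4 (0.61), subunits of the cytosolic chaperonin, besides Rab5a (0.61) and Dynlt3 (0.58). For Hspb1 it held Tagln2 (0.58), Tspo (0.57), Myl12a (0.55), Serpinh1 (0.54), a collagen chaperone, and Gng5 (0.54). These values carry no test.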

How the data were processed

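Libraries were made from RNA of homogenized tissue with Smart-Seq2 and Nextera XT and did not keep the strand, per the labels' protocols. The authors deposited a table of read counts per gene. The submitters' processing notes name Trim Galore 0.3.7, STAR 2.5.3a, DESeq2 and GRCm38. The counting program, its annotation and its treatment of reads with several matches are not given in the sources used here. The 21076 rows and 238 libraries were used as deposited, with totals from 605614 to 32410417 counts. Reads were amplified by PCR, so counting limits cover counting error only.

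The 10 genes and the gene lists were chosen with earlier results of these data known. Groups, mouse numbers and regions come from the labels. Within a region, edgeR 4.0.16 (R 4.3.3; quasi-likelihood test, TMM, genes kept by filterByExpr at 10 counts, and 15 in total) was fitted on all genes. Across regions, log2 CPM with a prior count of 2 was fitted with terms for region and mouse, and the mouse terms, 1 per animal, were tested with limma 3.58.1. P-values were adjusted by Benjamini and Hochberg over all genes tested and called under 0.05. Region by treatment terms and control levels were tested with edgeR F tests. Levels in AL liver against the mean of the brain regions were tested with edgeR as well. These edgeR fits did not include the mouse. The diet change in liver against that in brain was tested with limma on differences within mice. CPM values use plain library totals. DESeq2 1.42.0, RLE factors, other filters and prior counts, sets of regions, the mouse as a block and leaving out each mouse were tried as alternatives. Mouse numbers mark the same animal in all its regions per the labels, and pair regions but not treatments. P-values of tests within 1 region, and of limma tests on 1 value per mouse, measure the spread between these mice. Those of the edgeR fits over several regions or over liver and brain measure the spread between libraries, several of which share a mouse.

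Each member was described in its region of smallest p in each experiment where none was called. From each list the called genes were named, or the gene of smallest p. Likeness was Pearson's r of log2 CPM after group means were taken out. The scripts were tested on simulated data.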

Additional observations from a re-analysis of the deposited data

Results flagged for a closer look

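Among 75 groups of 4 to 10 mice or libraries that were looked at for a member gene, 2 held a sample far from the others, where chance alone gives such a sample in about 1 of 20 groups. Dnajb1 over the brain regions of the 4 AL mice was at -0.092 on the log2 scale in mouse 63, while the other 3 lay between 0.0020 and 0.011. Hspa1a in liver was at 1.999 CPM in restricted mouse 65, from 7 reads, while the other 4 restricted mice lay between 0.135 and 0.555 CPM.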

How the results depend on the processing

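In the diet experiment across brain regions, 0 members were called, but 1 (Hsph1) with a mean of at least 5 CPM and 1 with a mean-variance trend in limma, an alternative chosen after seeing the data. With the mouse as a replicate block 2 were called (Hsph1 and Hspa8), and 2 with no replicate block. In the plasma experiment 0 became 5 with the replicate block and 7 with no replicate block, and over all genes 0 became 503 and 2114. The block changed no call of liver against brain, of control levels or of effects differing between regions. Within regions, DESeq2 called 2 tests for diet and 3 for plasma, and dropping the low-count filter gave 1 and 2. Leaving out 1 mouse gave 0 to 1 calls for diet (Hsph1 in visual cortex without aDR mouse 67, adjusted p 0.0481, or AL mouse 69, 0.0104, edgeR) and 0 to 2 for plasma. Those were Hsph1 (0.29, adjusted p 0.0432) and Hspb1 (1.29, adjusted p 1.54e-04) in olfactory bulb without YMP mouse 77, and Hspa1a in corpus callosum (1.48, adjusted p 0.0496) without PBS mouse 84. The causes were not tested.

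Hspa1b across regions under diet was -0.0024 with plain totals, -0.036 without choroid plexus and corpus callosum and -0.030 with no replicate block, and ran from -0.072 to 0.057 over left-out mice. In liver Hspe1 was -0.0019 with DESeq2 and -0.012 without the filter, and ran from -0.046 to 0.066 over left-out mice. Over left-out mice, liver values ran from -0.13 to 0.80 for Hspa1b, -0.047 to 0.27 for Hsph1 and -0.11 to 0.12 for Hspa8. The liver against brain effect ran from -0.32 to 0.66 for Hspa1b and -0.11 to 0.21 for Hspa8, and Hsp90ab1 in AL liver against brain from -0.11 to 0.079. Hspa1b in entorhinal cortex ran from -0.43 to 0.66, and Hspe1 in olfactory bulb after plasma (0.19 with all mice) from -0.00045 without YMP mouse 81 to 0.30. Of all recomputed values 853 kept their direction and their side of the threshold, 29 turned direction, 26 came past the threshold, 1 lost it and 14 counts or values moved. Levels under a few reads a library limit Hspa1b throughout and Hspa1a in liver.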
